A study of Gossypium hirsutum with 89 samples.

Results

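The subject is 3 probe sets of the Affymetrix Cotton Genome array that report genes of the cytoskeleton in developing cotton fibre. They are Ghi.1314.3.A1_x_at for the alpha-tubulin gene TUA10, Ghi.317.1.S1_s_at for the alpha-tubulin gene TUA6 and Ghi.4621.1.S1_x_at for the actin gene ACT1, and they were chosen by identifier from the 24132 probe sets of the array. All 3 passed the filter on low signals, which kept 18889 probe sets for testing. RNA came from upland cotton, Gossypium hirsutum, grown in an open field. By their fibre traits, JKC 725 and JKC 777 carry the label superior and JKC 703, JKC 783 and JKC 737 the label inferior. Samples of every genotype were taken on days 0, 6, 9, 12, 19 and 25 after flower opening (days post anthesis, dpa), in 3 biological replicates, except that JKC 783 had 2 at 25 dpa, which gave 89 arrays. Material at 0 dpa was the whole ovule, although its labels name fibre, and from 6 dpa it was fibre alone, so the first interval compares fibre with whole ovules.

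Microtubules are hollow polymers of alpha- and beta-tubulin pairs. In a cotton fibre, a single cell that grows out from the seed coat, they lie beneath the plasma membrane and guide the direction in which cellulose is laid down, first in the thin wall of the elongating cell and later in the thick secondary wall. Actin filaments carry vesicles with wall material and membrane to the growing surface, and in cotton ACT1 is known as an actin gene used strongly in fibre and needed for fibre elongation. Cotton is a polyploid with an A and a D subgenome, and tubulins and actins are families of closely similar genes.

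Signals are MAS5 intensities on a linear scale, scaled by the authors to a common trimmed mean. Changes are given as log2 of the signal plus an offset of 4.38, with the standard error (SE) of the limma fit, so 1 on this scale is a doubling for signals well above the offset. A change between days or genotypes was called at an adjusted p under 0.05, over all tested probe sets, and a size of at least 1. The replicate number is small, and p-values measure the spread between these samples. In RNA from whole tissue, fewer cells of a type and less RNA per cell cannot be told apart. The array medians lay between 59.94 and 119.8, and JKC 725 12 dpa replicate 2 had the lowest correlation with the other arrays of its group (0.912, against a median of 0.974 over arrays). All 3 identifiers carry the suffix x_at or s_at, which marks probe sets that may also bind transcripts of related genes.

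The TUA10 probe set Ghi.1314.3.A1_x_at separated the genotypes early in fibre growth. At 6 dpa its signal was 4194 or more on every array of JKC 725 and JKC 703 and 667 or less on every array of JKC 777, JKC 783 and JKC 737. From 12 dpa onward no pair of genotypes differed in it by a called amount. A further probe set annotated to TUA10, Ghi.4648.3.A1_x_at, had the same course, and another, Ghi.1314.1.S1_x_at, showed no such split. TUA6 and ACT1 were bright on every array, ovules included, and moved by less than a doubling within fibre. ACT1 was higher in fibre at 6 dpa than in ovules in all 5 genotypes, by less than the minimum size for a call.

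In ovules TUA10 was faint. The 3 JKC 725 ovule arrays read 49.5, 77.6 and 79.8, and those of JKC 703 read 2.75, 12.0 and 16.7. JKC 777 ovules gave 2.12, 5.88 and 22.8, JKC 783 ovules 0.547, 1.61 and 6.78, and JKC 737 ovules 1.10, 2.02 and 3.77. JKC 725 lay above 40.4, the group mean that a probe set had to reach to be tested, and all 12 arrays of the other genotypes lay below it. JKC 725 ovules were higher than JKC 703 ovules, the next in order, with no overlap of arrays (adjusted p = 2.14e-04). The fitted difference of 2.41 ± 0.46 (SE) is set against a group below that signal and depends on the offset. In this pair 1.81% of all tested probe sets were called. The range over all 5 genotypes was 3.45 (adjusted p = 7.41e-09), or 5.22 with no offset and 2.13 with the larger one, on a day when 28.5% of probe sets were called among genotypes. Without JKC 725 it was 1.03 and not called (adjusted p = 0.135). The 4 other genotypes did not differ from their neighbours in order by a called amount, and values this faint carry little order.

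At 6 dpa the 3 JKC 703 arrays read 6914, 7028 and 7219 for TUA10, and those of JKC 725 read 4194, 7079.6 and 7339.7. JKC 777 gave 184, 228 and 667, JKC 783 gave 39.0, 275 and 318, and JKC 737 gave 148, 154 and 230. The arrays of JKC 703 and JKC 725 overlapped, those of the other 3 genotypes overlapped among themselves, and the lowest array of JKC 725 was above the highest of JKC 777. JKC 725 exceeded JKC 777, its neighbour below, by 4.29 ± 0.46 (adjusted p = 3.25e-11). Of the 10 pairs of genotypes at 6 dpa 6 were called for TUA10, with sizes from 4.29 to 5.48. They set JKC 725 above JKC 777, JKC 783 and JKC 737, pairs in which 13.9, 17.3 and 17.8% of all tested probe sets were called, and JKC 703 above the same 3, pairs with 10.7, 15.9 and 15.3% called. The 4 pairs that were not called differed by at most 0.97. In JKC 725 with JKC 703 1.7% of all tested probe sets were called. Among JKC 777, JKC 783 and JKC 737 the pairs had 0.757 to 1.81% called. In the test among all 5 genotypes 27.9% of probe sets were called.

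TUA10 rose between ovules and 6 dpa fibre in all 5 genotypes, in each of which the fibre arrays lay above the ovule arrays. The rise was largest in JKC 703, at 9.03, and was 6.39 in JKC 725, 4.76 and 4.66 in JKC 737 and JKC 777, and 4.51 in JKC 783 (SE 0.46 each). In the same step 30.3, 33.5, 18.4, 29.1 and 19.8% of tested probe sets were called in those genotypes, in that order. Because most ovule values were near the floor, these sizes moved with the offset: with none the JKC 783 rise was 6.38, and with an offset of 17.17 it was 3.15, while that of JKC 725 stayed between 6.15 and 6.48. Set against the filter's signal of 40.4 instead, the 6 dpa mean was 174 times as high in JKC 703, 8.9 times in JKC 777, 5.22 times in JKC 783 and 4.4 times in JKC 737. The rises differed between genotypes (limma's F test of the interaction, range 4.52, adjusted p = 8.4e-08, where 34% of tested probe sets had an adjusted p under 0.05). Without JKC 703 the range was 1.88 and the adjusted p 0.0849, so the difference in this step rested on that genotype.

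**Figure D1:**
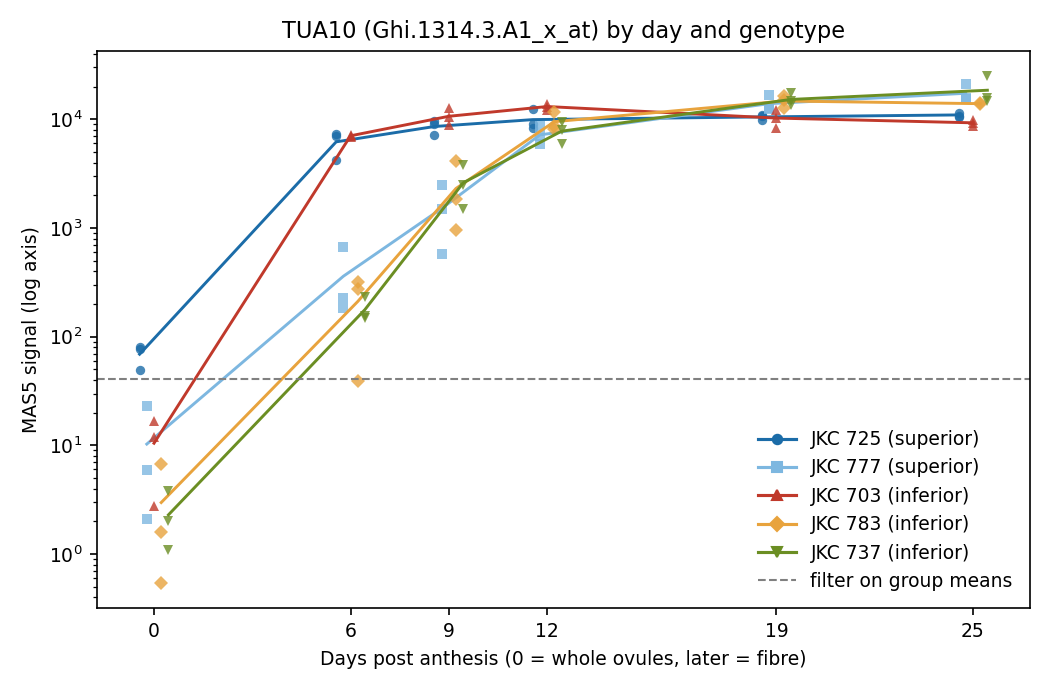
TUA10 signal on a log axis against days post anthesis, with 1 point per array, a line through each genotype's means and a dashed line at 40.4, the group mean needed for testing. At 6 dpa JKC 725 and JKC 703 sit between 4194 and 7339.7 and the other 3 genotypes between 39.0 and 667. From 12 dpa the 5 lie closer together. At 19 and 25 dpa all arrays of those 3 lie above all arrays of JKC 725 and JKC 703.

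At 9 dpa the TUA10 arrays of JKC 703 read 8816, 10560.1 and 12624 and those of JKC 725 read 7145, 8993 and 9631. JKC 737 gave 1501, 2499 and 3822, JKC 783 gave 949.5, 1861 and 4134, and JKC 777 gave 582, 1493 and 2463. The same break in the order remained, with JKC 725 above JKC 737 by 1.81 ± 0.46 (adjusted p = 0.00119) and no overlap, on a day when 25.6% of probe sets were called among genotypes. The same 6 pairs were called. JKC 725 was above JKC 777, JKC 783 and JKC 737 in pairs with 14.5, 13.3 and 14.1% of probe sets called. JKC 703 was above the same genotypes in pairs with 13.2, 9.65 and 12.9% called. The pair of JKC 725 with JKC 703 had 5.75% called, and the pairs among JKC 777, JKC 783 and JKC 737 had 0.736 to 1.07%. Relative to 6 dpa, TUA10 rose by 3.77 in JKC 737, by 3.63 in JKC 783 and by 2.07 in JKC 777 (SE 0.46 each; adjusted p = 8.21e-09, 2.35e-08 and 0.00262), steps in which 3.88, 4.3 and 1.67% of probe sets were called. The 9 dpa and 6 dpa arrays of JKC 777 overlapped, and without JKC 777 9 dpa replicate 1 its rise was 1.60 and no longer called (adjusted p = 0.0845), nor was it with all replicates numbered 2 left out (1.76, adjusted p = 0.142). JKC 725 stood at +0.50 and JKC 703 at +0.58, neither of them called, in steps with 10.2 and 2.67% called. The steps differed between genotypes (range 3.27, adjusted p = 2.43e-05, 19.4% of probe sets), although with all replicates numbered 2 left out the adjusted p was 0.0578.

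By 12 dpa the genotypes lay closer together, and no pair of them was called. The TUA10 arrays read 12301, 13118 and 13909 in JKC 703, 8389, 9106 and 12317 in JKC 725, 8072, 8719.8 and 11744 in JKC 783, 5978, 7905 and 9444 in JKC 737, and 5989.7, 6973 and 8627 in JKC 777. Every neighbour in this order overlapped the next, but all JKC 703 arrays lay above all arrays of JKC 783, JKC 737 and JKC 777. The whole range was 0.88 and its adjusted p 0.42 (limma's F test). On this day 30.1% of probe sets were called among genotypes. Relative to 9 dpa, TUA10 rose by 2.46 in JKC 777, 2.27 in JKC 783 and 1.65 in JKC 737 (adjusted p = 1.86e-04, 3.08e-04 and 0.0229), with 2.74, 4.94 and 1.69% of probe sets called. JKC 725 stood at +0.20 and JKC 703 at +0.31, with 2.98 and 9.39% called. The JKC 737 call was lost with no offset (1.65, adjusted p = 0.101) and with all replicates numbered 1, 2 or 3 left out (adjusted p = 0.306, 0.0839 and 0.0966). It was also lost without JKC 737 12 dpa replicate 1 (adjusted p = 0.0909) or replicate 2 (0.0899), and without JKC 737 9 dpa replicate 1 (0.193) or replicate 3 (0.054), with changes of 1.31 to 1.67. With all replicates numbered 3 left out, the JKC 777 rise was 2.01 (adjusted p = 0.0773) and the JKC 783 rise 1.59 (0.109), and neither was called. The steps again differed between genotypes (range 2.26, adjusted p = 0.00812, 16.7% of probe sets), a difference lost without JKC 725 (adjusted p = 0.0853), without JKC 703 (0.0706), with no offset (0.0896) or with all replicates numbered 3 left out (0.477, at a range of 1.61).

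The later steps of TUA10 stayed under the minimum size for a call in every genotype, although from 12 to 19 dpa the mean rose 1.96-fold in JKC 737 and 1.94-fold in JKC 777. From 12 to 19 dpa none was called: JKC 737 stood at +0.99, JKC 777 at +0.96, JKC 783 at +0.64, JKC 725 at +0.10 and JKC 703 at -0.37. The arrays of the 2 days did not overlap in JKC 737, JKC 777 and JKC 783, which were higher at 19 dpa, or in JKC 703, which was lower. The share of probe sets called in this step was 8.16, 8.9, 8.45, 19.6 and 29.0% in those 5 genotypes, in that order. From 19 to 25 dpa the values ran between -0.13 and +0.32 and none was called, where 17.7, 11.5, 4.19, 6.51 and 5.72% of probe sets were, in the same order of genotypes. The differences between genotypes in these 2 steps had adjusted p-values of 0.232 and 0.961, where 54.7 and 37.3% of probe sets passed. At 25 dpa the TUA10 mean was highest in JKC 737, at 18520 ± 5640, followed by JKC 777 with 17370 ± 3110, JKC 783 with 13940 ± 167 (n = 2), JKC 725 with 10980 ± 462 and JKC 703 with 9286 ± 660 (SD, n = 3 otherwise). The order had turned round relative to 6 dpa. At 19 and at 25 dpa every array of JKC 777, JKC 783 and JKC 737 lay above every array of JKC 725 and JKC 703. How many probe sets had such a gap was not counted. In pairs of genotypes across it, 27.4 to 38.4% of probe sets were called at 19 dpa and 21.3 to 32.3% at 25 dpa. For JKC 725 with JKC 703 these shares were 4.6 and 1.93%. Among JKC 777, JKC 783 and JKC 737 they were 1.45 to 2.59% and 5.98 to 11.2%. In limma's F test the range of 0.96 at 25 dpa had an adjusted p of 0.211 and that of 0.58 at 19 dpa one of 0.609. No pair was called on either day, when 49.4 and 49.2% of probe sets were called among genotypes. The fit used 1 spread for all days. Averaged over genotypes, the replicate SD of TUA10 was 0.19 at 19 dpa and 0.17 at 25 dpa, against 0.69 at 6 dpa.

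Read along each genotype, TUA10 had 2 kinds of course. At 6 dpa JKC 725 had reached 56.5% and JKC 703 53.8% of their own highest group mean, against 2.07% in JKC 777, 1.43% in JKC 783 and 0.96% in JKC 737. Over the 5 fibre days the highest mean was 1.77 times the lowest in JKC 725 and 1.86 times in JKC 703, against 48.3 times in JKC 777, 69.9 times in JKC 783 and 104 times in JKC 737. The transition, late fibre (19 and 25 dpa, averaged) minus early fibre (6, 9 and 12 dpa, averaged), was +3.44 ± 0.29 in JKC 777, +3.33 ± 0.32 in JKC 783 and +3.47 ± 0.29 in JKC 737, all called, where 19.8, 18.3 and 22.5% of probe sets were. It was +0.43 ± 0.29 in JKC 725 and -0.03 ± 0.29 in JKC 703, neither called, where 30.5 and 34% were. The F test of genotype by day over the fibre days gave 17.0 (adjusted p = 5.31e-16), in a table where 78.9% of probe sets had an adjusted p under 0.05. The mean TUA10 transition of +2.13 ± 0.13 over genotypes, 1 of the calls made for 18.4% of probe sets, averaged 3 genotypes above 3 and 2 near 0.

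This split did not follow the labelled fibre classes, since each course held genotypes of both. At 6 dpa the difference of superior and inferior genotypes for TUA10 was +1.23 ± 2.03, between means of 10.41 and 9.19, and over the fibre days it was +0.16 ± 0.60, with the 2 against 3 genotype means as replicates. For TUA10, TUA6 and ACT1, 0 of 21 class tests by limma had an adjusted p under 0.05, and 0 had an unadjusted p under 0.05. The lowest unadjusted p was 0.0551, for TUA10 in ovules (+1.80 ± 0.78). Over all probe sets 0.0159% passed at 6 dpa, 0.00529% at 0 and at 12 dpa, and 0% on the other days and over the fibre days.

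Marker levels at 6 dpa differed between the same genotypes. The summed means of 7 fibre cell probe sets (E6, H6L, EXPA1, LTP3 and FLA6) at 6 dpa were 38590 in JKC 725 and 39340 in JKC 703, against 53390 in JKC 777, 48650 in JKC 783 and 54640 in JKC 737. Those of 5 seed and embryo probe sets (Lea5-D, Lea14-A, LegA and LEGB) were 3287 in JKC 725 and 3590 in JKC 703, against 1451 in JKC 777, 2309 in JKC 783 and 2079 in JKC 737. In the array-wise sums the fibre markers were 35290 to 62100 at 6 dpa and 8004 to 11810 in ovules, and none of these probe sets was at 0. At 25 dpa the seed and embryo sums were 11360 in JKC 725 and 17020 in JKC 703, against 5086, 3812 and 3380 in JKC 777, JKC 783 and JKC 737. On other days the order was not the same throughout. At 9 dpa the seed and embryo sum was 2573 in JKC 725 and 5788 in JKC 703, against 2172, 2670 and 1743 in JKC 777, JKC 783 and JKC 737, and at 12 dpa the fibre sum was the higher in JKC 725 and JKC 703, at 67660 and 70960, against 55890, 61440 and 56930. Such sums are weighted to the brightest probe sets, and single members went both ways. In the transition 3 of 5 seed and embryo probe sets rose and 2 fell in JKC 725, and 2 rose and 2 fell in JKC 703. Of all tested probe sets 16.9% rose and 13.5% fell in JKC 725, and 19.6 and 14.4% in JKC 703. In JKC 777, JKC 783 and JKC 737 1, 0 and 1 of the 5 rose and 1, 1 and 2 fell. Of all tested probe sets 8.15, 7.71 and 8.76% rose in those genotypes, and 11.7, 10.6 and 13.8% fell. The part of the marker differences between genotypes in the TUA10 result was not tested.

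The annotation pairs TUA10 with 2 further probe sets, and they gave different pictures. Ghi.4648.3.A1_x_at had the same course as the one described: its 6 dpa means were 6631 and 5801 in JKC 703 and JKC 725, against 320.1, 189 and 165 in JKC 777, JKC 783 and JKC 737, and over the 25 fibre groups its log2 means correlated with those of Ghi.1314.3.A1_x_at at r = 1.00. Its transition was +3.51 ± 0.26 in JKC 777, +3.33 ± 0.28 in JKC 783 and +3.56 ± 0.26 in JKC 737, against +0.41 ± 0.26 in JKC 725 and +0.01 ± 0.26 in JKC 703. Ghi.1314.1.S1_x_at, by contrast, read 3055 to 4101 in the ovule means and 9239 to 11110 in the 6 dpa means, in all 5 genotypes. It rose into fibre in each, by 1.32 to 1.81, its range among genotypes at 6 dpa was 0.26, and its genotype by day F over the fibre days was 0.60 (not called). Which transcripts each of the 3 binds was not tested.

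**Figure D2:**
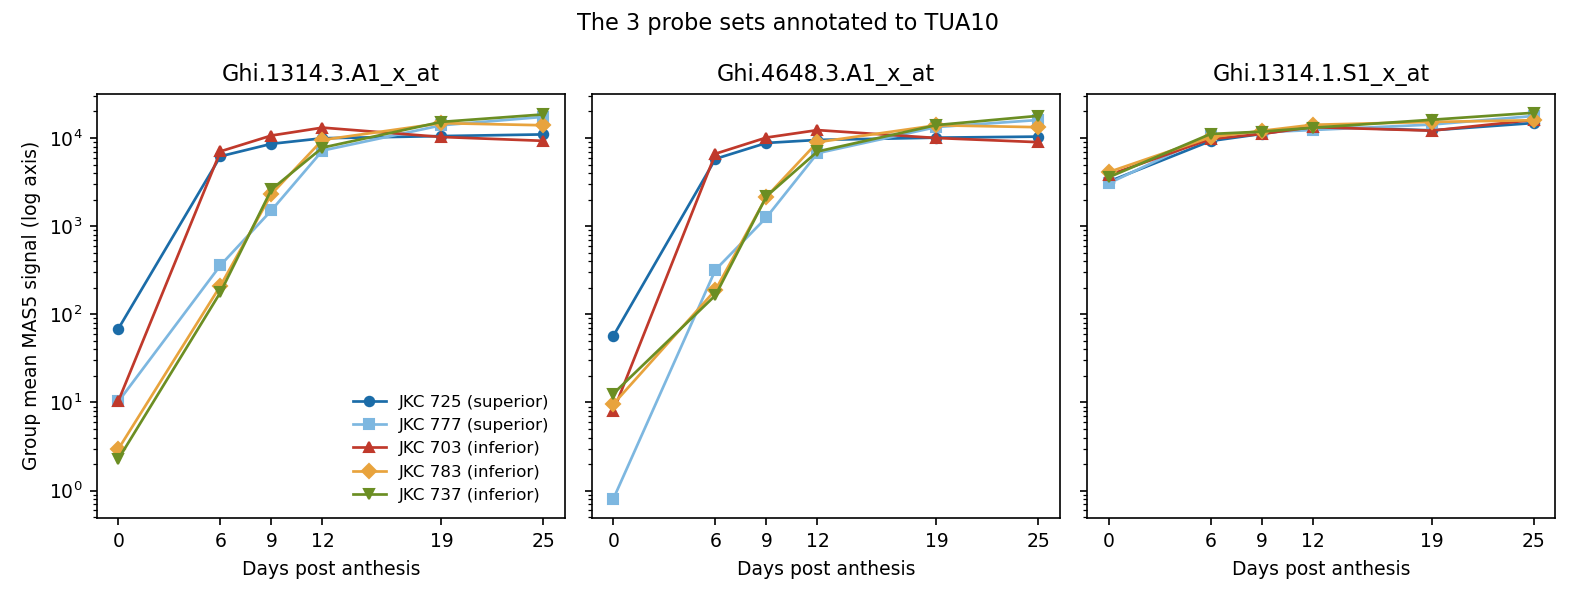
Group mean signal on log axes against days post anthesis for the 3 probe sets annotated to TUA10, with 1 line per genotype. Ghi.1314.3.A1_x_at and Ghi.4648.3.A1_x_at separate JKC 725 and JKC 703 from the rest at 6 and 9 dpa, and Ghi.1314.1.S1_x_at, at 9239 to 11110 at 6 dpa, does not.

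TUA6 was close to level. Its group means in fibre ran from 8546 to 16220, a 1.88-fold range, and the SD of the 25 log2 means was 0.24, at the 5.78th percentile of all tested probe sets and the 34.5th of the 200 with the highest mean, against 2.01 and the 97.7th percentile for TUA10. It was bright in ovules too, where the arrays read 14332, 14673 and 15233 in JKC 777, 10156, 11178 and 11465 in JKC 737, 10348, 10682 and 11591 in JKC 783, 8623, 9102 and 9164 in JKC 725, and 7877, 7987 and 8766 in JKC 703. The JKC 777 ovule arrays lay above all others. The ovule range was 0.85 (adjusted p = 3.16e-04), under the minimum size, and passed it at 1.02 when arrays were centred on their medians.

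No step of TUA6 was called in any genotype. Of 25 steps, limma gave 0 with an adjusted p under 0.05 and 2 with an unadjusted one, and the values ran from -0.38 (JKC 777, 6 minus 0 dpa) to +0.37 (JKC 725, 9 minus 6 dpa). The step from ovules to 6 dpa fibre averaged +0.02 ± 0.08, while the median of all tested probe sets was -0.28, and on quantile-normalized values it was -0.12.

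TUA6 diverged among genotypes late. At 25 dpa its arrays read 14449, 14466 and 19755 in JKC 737, 13401, 14272 and 16326 in JKC 777, 12755 and 13847 in JKC 783, 7402, 8813 and 10794 in JKC 725, and 8509, 8522 and 8608 in JKC 703. All arrays of the first 3 lay above all arrays of JKC 725 and JKC 703. The range was 0.91 (adjusted p = 1e-06), under the minimum size for a call and 1.32, past it, with arrays centred on their medians. JKC 783 exceeded JKC 725, the next in order, by 0.58 ± 0.19 (adjusted p = 0.00926), and 6 of 10 pairs had an adjusted p under 0.05 without reaching the minimum size. They were the pairs of JKC 725 with JKC 777, JKC 783 and JKC 737, in which 21.3, 29.5 and 29.2% of probe sets were called, and those of JKC 703 with the same 3, in which 24.7, 31.3 and 32.3% were. The TUA6 transition had positive values of +0.42 ± 0.11 in JKC 737, +0.28 ± 0.11 in JKC 777 and +0.26 ± 0.12 for JKC 783, and negative values of -0.15 ± 0.11 in JKC 725 and -0.21 ± 0.11 for JKC 703. These values depend on the scaling, since the mean transition of +0.12 ± 0.05 became -0.18 under quantile normalization. The genotype by day F over fibre days was 2.66 (adjusted p = 0.00451) and was not called without JKC 703 (1.97, adjusted p = 0.0654) or with all replicates numbered 1 left out (1.71, 0.124).

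A single array set the TUA6 value of JKC 725 at 12 dpa. Its arrays read 9640, 25059 and 8128, and the high value came from replicate 2, the array with the lowest correlation to its group. On the same array TUA10 read 12317, against 9106 and 8389 on the other replicates, and ACT1 read 13924, against 10979.6 and 10833. Without it the TUA6 step from 9 to 12 dpa in JKC 725 was -0.39 (adjusted p = 0.0477) in place of +0.11, and the differences between genotypes in that step and the next had adjusted p-values of 0.0261 and 0.00536, in place of 0.963 and 0.0695.

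ACT1 differed between fibre and ovule in each genotype. At 6 dpa its arrays read 12830, 13141 and 14871 in JKC 737, against 7901, 8197 and 8213 in ovules. They read 12004, 12214 and 12708 in JKC 777, against 6553, 6647 and 7053 in ovules, and 11216, 11336 and 14027 in JKC 783, against 6331, 6714 and 7349.9 in ovules. They read 10403, 11821 and 12558 in JKC 703, against 6400.4, 7074 and 7139.5 in ovules, and 9598, 11936 and 12136 in JKC 725, against 6197, 6239.6 and 6539 in ovules. Every 6 dpa array of any genotype lay above every ovule array. The change was +0.75 to +0.87 (SE 0.12 each; largest adjusted p = 6.41e-07) and averaged +0.80 ± 0.05 (adjusted p = 2.21e-21), a step in which 23.1% of probe sets were called on average over genotypes, while the median of all tested probe sets was -0.28. It was under the minimum size for a call. When arrays were centred on their medians it was past it, at 1.12 on average and at 1.31, 1.12, 1.09 and 1.06 in JKC 725, JKC 703, JKC 777 and JKC 783. The genotypes did not differ detectably in this step (range 0.12, adjusted p = 0.955), though on quantile-normalized values the range was 0.44 (adjusted p = 0.0371).

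Within fibre ACT1 means ran from 10470 to 17840, a 1.7-fold range, and the SD of the 25 log2 means was 0.24, at the 5.75th percentile of tested probe sets. Of its 25 steps within genotypes, ovule to fibre included, limma called 0, with 8 at an adjusted and 11 at an unadjusted p under 0.05. At 12 dpa JKC 725 was below each of the other 4 genotypes, by 0.32 to 0.39 (adjusted p = 0.00725 to 0.042), under the minimum size. At 19 dpa the arrays read 15973, 17958 and 19591 in JKC 783, 17177, 17512 and 17614 in JKC 737, 14704, 15310.2 and 16114 in JKC 777, 10510.4, 11855 and 11964 in JKC 703, and 9999, 10387 and 11036 in JKC 725. The first 3 lay wholly above the other 2, a divide across which pairs of genotypes had 27.4 to 38.4% of probe sets called. The range was 0.76 (adjusted p = 6.47e-09), under the minimum size, and JKC 777 exceeded JKC 703, its neighbour below, by 0.43 ± 0.12 (adjusted p = 0.00176), a pair in which 38.4% of probe sets were called.

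The ACT1 step from 12 to 19 dpa was -0.42 ± 0.12 in JKC 703 (adjusted p = 0.0028) and -0.18 in JKC 725, against 0.00 in JKC 777, +0.19 in JKC 783 and +0.24 in JKC 737, a difference between genotypes with an adjusted p of 0.00376, where 54.7% of probe sets passed. It was lost without JKC 703 (adjusted p = 0.118), with all replicates numbered 1 left out (0.144) and on quantile-normalized values (0.12). From 19 to 25 dpa JKC 725 stood at +0.54 ± 0.12 (adjusted p = 7.93e-04) and JKC 703 at +0.25, against +0.18 in JKC 777, -0.07 in JKC 783 and -0.01 in JKC 737 (difference, adjusted p = 0.0244, 37.3% of probe sets). The second difference was lost without any 1 of 4 arrays: JKC 725 19 dpa replicate 2 (adjusted p = 0.0595), JKC 725 25 dpa replicate 1 (0.0524) or replicate 3 (0.0504), or JKC 783 25 dpa replicate 1 (0.0601). It was also lost with all replicates numbered 1 (0.0755) or 2 (0.266) left out. The ACT1 transition was +0.37, +0.38 and +0.35 in JKC 737, JKC 783 and JKC 777, against +0.07 in JKC 725 and -0.10 in JKC 703 (SE 0.08 each), and its mean of +0.21 ± 0.04 became -0.15 under quantile normalization.

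**Figure D3:**
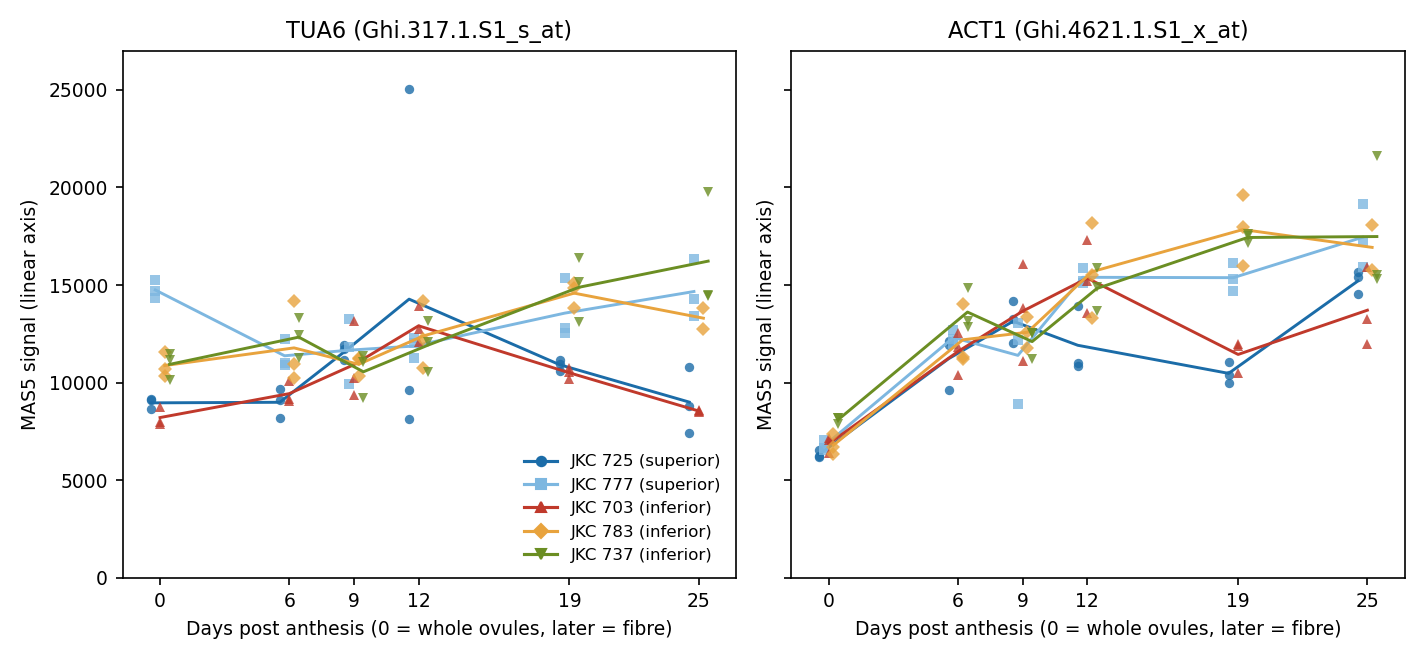
TUA6 (left) and ACT1 (right) signal on a linear axis from 0 against days post anthesis, with 1 point per array and a line through each genotype's means. The TUA6 point at 25059 is JKC 725 12 dpa replicate 2, and at 19 dpa the ACT1 arrays of JKC 725 and JKC 703 lie between 9999 and 11964, below those of the other genotypes.

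**Figure D4:**
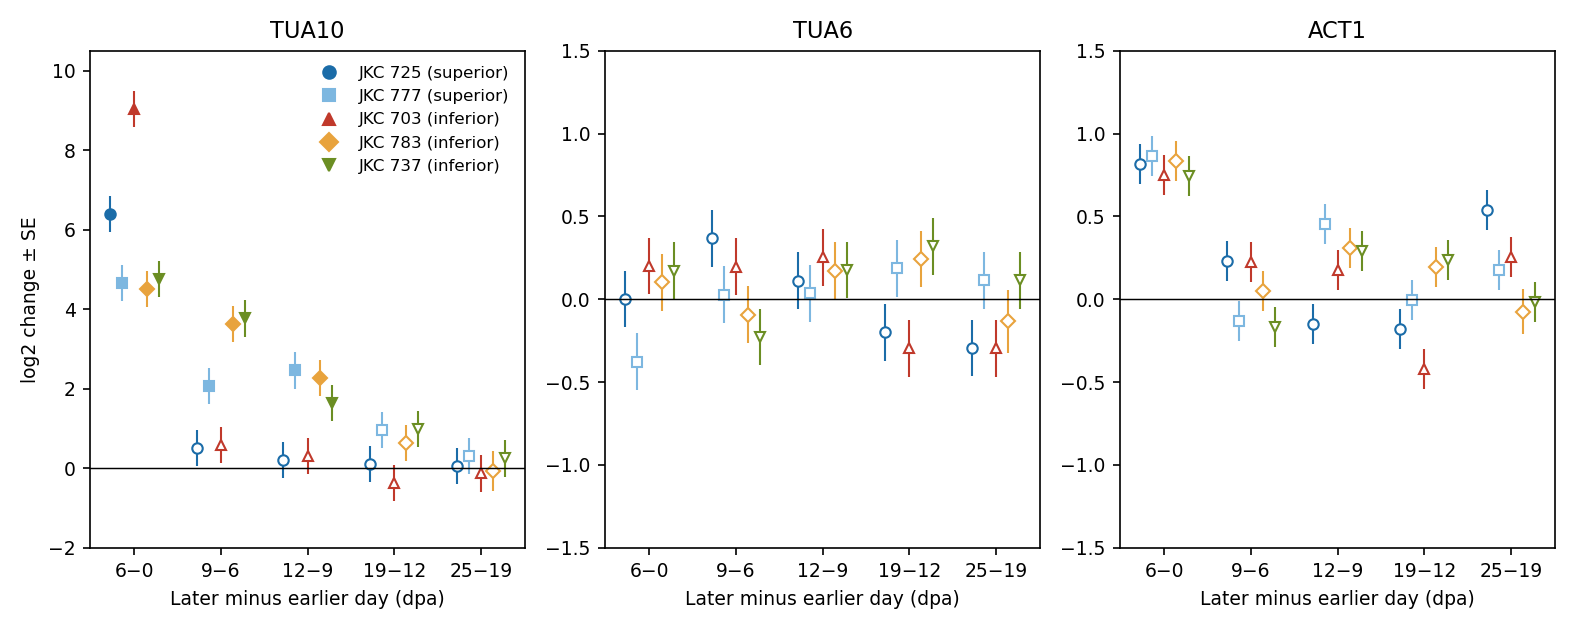
log2 change ± SE from each sampled day to the next for TUA10, TUA6 and ACT1, with 1 marker per genotype, filled where the change was called. The vertical axis of TUA10 is longer than that of TUA6 and ACT1, whose steps stayed between -0.42 and +0.87 and hold no filled marker.

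Ratios taken within each array remove the scaling that arrays share. Over the fibre days the log2 ratio of TUA10 to TUA6 moved through a span of 5.44 in JKC 777, 6.28 in JKC 783 and 6.27 in JKC 737, against 0.88 in JKC 725 and 0.54 in JKC 703. The ratio of TUA10 to ACT1 spanned 5.30, 5.99 and 6.31 in JKC 777, JKC 783 and JKC 737, against 0.90 in JKC 725 and 0.54 in JKC 703. That of TUA6 to ACT1 ran the other way in size, with spans of 0.42, 0.29 and 0.21 in JKC 777, JKC 783 and JKC 737, against 0.85 in JKC 725 and 0.55 in JKC 703. The 2 alpha-tubulin probe sets thus changed unequally in 3 genotypes by far more than in the other 2. These spans were not tested.

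The array holds 8 tested tubulin probe sets, of which 3 are annotated to TUA10. From ovules to 6 dpa 7 of 8 rose on average over genotypes, all but TUA6, where 8.43% of all tested probe sets rose, and the median tubulin change was 2.49, against -0.28 for all. In the transition 4 of 8 rose on average (8.73% of all), namely TUA10 by 2 probe sets and the beta-tubulin genes BTub1 and BTub3. By genotype, 4 of 8 rose in JKC 777, 4 of 8 in JKC 783 and 5 of 8 in JKC 737, where 8.15, 7.71 and 8.76% of all rose, with tubulin medians of 1.09, 1.10 and 1.21. In JKC 725 limma called 0 of 8, with 3 at an unadjusted and 3 at an adjusted p under 0.05. There 16.9% of all rose and the tubulin median was 0.23. In JKC 703 1 of 8 fell, where 14.4% of all fell, and 0 rose, where 19.6% of all rose. Of the 8 tests by limma, 4 had an unadjusted and 4 an adjusted p under 0.05, and the tubulin median was -0.01. Over the fibre days 7 of 8 tubulin probe sets had a genotype by day F with an adjusted p under 0.05, a share to be read against 78.9% of all.

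BTub1, BTub3 and BTub4 report beta-tubulins, the partners of alpha-tubulin in the microtubule. BTub3 rose in the transition by 1.27, 1.32 and 1.36 in JKC 777, JKC 783 and JKC 737, and stood at +0.89 in JKC 725 and +0.58 in JKC 703. BTub1 means at 6 dpa were 3750 and 3445 in JKC 703 and JKC 725, against 1136, 539 and 390.2 in JKC 777, JKC 783 and JKC 737, and at 25 dpa 2022 in JKC 703 and 2938 in JKC 725, against 11520, 10830 and 14210 in JKC 777, JKC 783 and JKC 737. Its transition was +1.92 ± 0.22 in JKC 777, +2.18 ± 0.24 in JKC 783 and +2.45 ± 0.22 in JKC 737, all called, and -0.23 ± 0.22 in JKC 725 and -0.93 ± 0.22 in JKC 703, neither called. BTub4 fell in JKC 703 (-1.13 ± 0.13) and rose in JKC 737 (+1.06 ± 0.13). It stood at -0.89 in JKC 725, +0.92 in JKC 777 and +0.88 in JKC 783. Its 25 dpa means were 4668 and 4777 in JKC 703 and JKC 725, against 18750, 16000 and 19740 in JKC 777, JKC 783 and JKC 737. The alpha-tubulin TubA2 moved less, by +0.11 to +0.74.

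Of 4 tested actin probe sets 1 rose from ovules to 6 dpa on average over genotypes, where 8.43% of all rose: ACT4, by 1.28 ± 0.06, while ACT11 and ACT7 stood at +0.91 and +0.59. By genotype, ACT4 rose in JKC 725, JKC 777, JKC 783 and JKC 737, where 11.6, 9.29, 6.98 and 8.2% of all rose. ACT11 rose in JKC 777 by 1.14 ± 0.13 and in JKC 737 by 1.01 ± 0.13. The probe set for ACT10 did not pass the filter. In the transition limma called 0 of 20 actin tests over 5 genotypes, where 18.3 to 34% of all probe sets were called per genotype. Of the 20 tests, 16 had an unadjusted and 15 an adjusted p under 0.05, but none reached the minimum size. Values ran between -0.39 and +0.38, the extremes being ACT7 in JKC 703 and ACT1 in JKC 783. Katanin, which severs microtubules and is reported by GhKTN1, rose in the transition in JKC 703 (1.04 ± 0.11) and JKC 737 (1.01 ± 0.11) and stood at +0.77 to +0.97 in the other genotypes, under the minimum size. The kinesin gene KCH1, a motor that binds both microtubules and actin, rose in the transition in 4 genotypes, by 2.76 and 2.54 in JKC 703 and JKC 725 and by 1.66 and 1.20 in JKC 737 and JKC 777 (SE 0.33 each), and was at +0.18 ± 0.35 in JKC 783.

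Of the 3 ROP GTPases, small switch proteins that organise the cortical cytoskeleton, Rac9 rose in the transition in all 5 genotypes, by 2.62 to 3.30. Between 7.71 and 19.6% of all tested probe sets rose in the transition, by genotype. Rac13, known in cotton for its link with secondary wall formation, rose by 3.91 ± 0.18, 4.15 ± 0.20 and 4.11 ± 0.18 in JKC 777, JKC 783 and JKC 737, and stood at +0.55 ± 0.18 in JKC 725 and +0.40 ± 0.18 in JKC 703. Its 6 dpa means were 152 in JKC 725 and 190 in JKC 703, against 60.2, 62.4 and 55.1 in JKC 777, JKC 783 and JKC 737. At 9 dpa they were 709 and 775 in the first pair, against 78.5, 122 and 96.6 in the same 3, and at 12 dpa 1663 and 2084, against 194, 134 and 138.0. Rac2 stayed between +0.05 and +0.47. The annexin genes AnnGh1 and Anx1, whose products bind membranes and actin, gave 1 call. It was Anx1 at -1.08 ± 0.10 in JKC 725, where 13.5% of all tested probe sets fell.

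**Figure D5:**
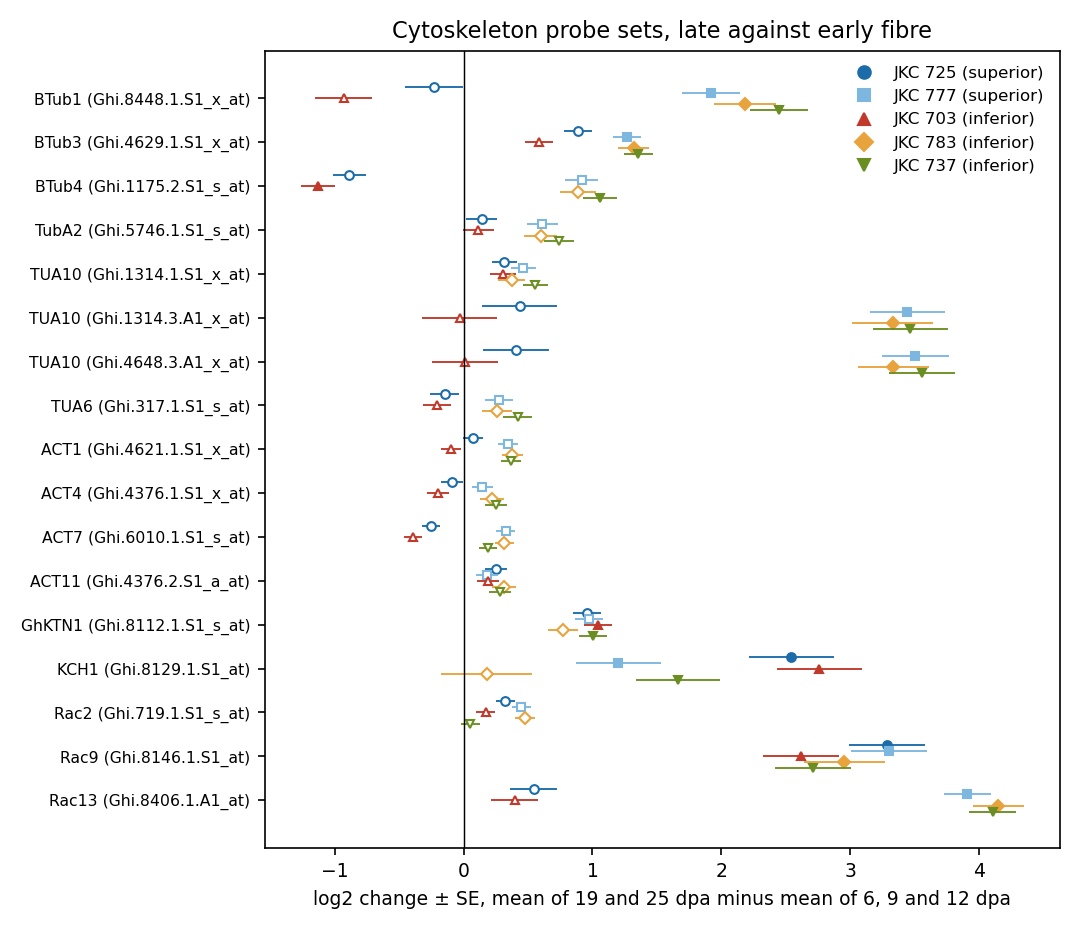
Transition of the tested tubulin, actin, katanin, kinesin and ROP GTPase probe sets, as log2 change ± SE of late fibre (19 and 25 dpa) minus early fibre (6, 9 and 12 dpa), with 1 marker per genotype, filled where called. TUA10 (2 of 3 probe sets), BTub1 and Rac13 place JKC 777, JKC 783 and JKC 737 to the right of JKC 725 and JKC 703, and the TUA6 and ACT1 values stay between -0.21 and +0.42.

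The nameable probe sets of other genes whose 25 fibre group means followed each of the 3 most closely were found by Pearson's r of the log2 means, a description in which groups share genotypes and days. For TUA10 they were the secondary wall cellulose synthase gene CelA1 (r = 0.91), BTub1 (0.89), the chalcone synthase gene CHS3 (0.89) and 2 probe sets of paC1 (0.88 and 0.88). In all, 131 of 18886 other tested probe sets were at least as close as the fifth, most of them unnamed. For TUA6 they were the fibre protein gene E6 (0.91), AnnGh1 (0.90), f15 (0.89), BTub4 (0.84) and ACT4 (0.81), with 29 of 18888 at least as close as the fifth. For ACT1 they were f15 (0.89), ACT11 (0.85), AnnGh1 (0.82), Chia7 (0.80) and the TUA10 probe set Ghi.1314.1.S1_x_at (0.80), with 52 of 18888. Ranked by Spearman's rho instead, CelA1, BTub1 and paC1 left the 5 closest to TUA10 and susC, TubA2, BTub3 and Rac13 entered. The same 5 genes stayed closest to TUA6. For ACT1, Chia7 and the TUA10 probe set left and MADS-1 and EF1A1 entered. By Pearson's r with ovules included (30 groups), only BTub1 stayed for TUA10 and only AnnGh1 for TUA6. For ACT1, CAP then took the place of AnnGh1.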

How the data were processed

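RNA of 89 samples was labelled as biotin cRNA and hybridised to the Affymetrix Cotton Genome array, per the labels. The deposited table gives each probe set an intensity on each array, made by the authors with MAS5 per the submitters' processing notes, whose version is not given in the sources used here. The 2% trimmed mean of each array was between 500.091 and 500.188, so arrays had been scaled to a common mean, and no further normalization was applied. Whether the brightest probe sets were saturated was not tested. The number of arrays limits the precision.

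An offset of 4.38, the 10th percentile over all signals, was added to each intensity before log2 was taken, after control probe sets were left out (24029 remained). Probe sets with at least 1 of the 30 group means at or above the 40th percentile, 40.4, were tested. limma 3.58.1 in R 4.3.3 fitted a mean per group with an intensity trend in the prior, and p-values were adjusted by Benjamini-Hochberg over 18889 probe sets. Changes and genotype ranges were called at an adjusted p under 0.05 and a size of at least 1, and interactions and class differences at the adjusted p alone. Classes were compared on the 5 genotype means. The fits were tested on simulated data.

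Gene names came from the platform annotation and the RefSeq table of assembly Gossypium_hirsutum_v2.1, which gave readable names to 324 probe sets. Genes named are TUA10, TUA6 and ACT1, their other probe sets, the tested members of the cytoskeleton and marker lists, and the 5 nameable probe sets closest to each of the 3. These members and lists were chosen with earlier results of these data known. Alternatives were other offsets, filters and normalizations, a replicate block, no variance trend, and each replicate number, array or genotype left out. Deviations of same-numbered arrays from their group means had a mean r of 0.00211 over 1276 pairs of different groups. It was 0.00876 within a genotype and 0.00114 within a day. The share of pairs with r over 0.1 was 13.2% within a genotype and 12.5% within a day, against 9.6% for other numbers. The numbers were not treated as pairing samples, and pairing within single genotypes or days was not tested. No 2 arrays were duplicates (highest correlation 0.995).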

Additional observations from a re-analysis of the deposited data

Results flagged for a closer look

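For TUA10, TUA6 and ACT1 a test of the difference itself found that genotypes changed unequally. For TUA10 the range of the step among genotypes was 4.52 from 0 to 6 dpa, 3.27 from 6 to 9 dpa and 2.26 from 9 to 12 dpa, on the log2 scale, and the F value of genotype by day over the fibre days was 17.0. In the first step JKC 703 and JKC 725 changed by 9.03 and 6.39 and the other genotypes by 4.51 to 4.76, and in the next 2 steps JKC 777, JKC 783 and JKC 737 changed by 1.65 to 3.77 and JKC 725 and JKC 703 by 0.20 to 0.58.

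For ACT1 the range was 0.66 from 12 to 19 dpa and 0.61 from 19 to 25 dpa, and the F value over the fibre days was 4.17. In the first of these JKC 703 was lowest at -0.42 and JKC 737 highest at +0.24, and in the second JKC 783 was lowest at -0.07 and JKC 725 highest at +0.54. For TUA6 the F value over the fibre days was 2.66, with no single step passing. Such F tests passed for 78.9% of all tested probe sets over the fibre days. In the steps named they passed for 34, 19.4 and 16.7% (TUA10) and for 54.7 and 37.3% (ACT1). Without JKC 703 the TUA10 differences from 0 to 6 dpa and from 9 to 12 dpa were lost. So were the ACT1 difference from 12 to 19 dpa and the TUA6 F over the fibre days.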

How the results depend on the processing

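The TUA10 rises from ovules to 6 dpa fibre, its genotype ranges at 0, 6 and 9 dpa and its transition calls held, though not in size, under every alternative offset, filter, normalization and variance prior tried. The larger offset, no filter and no variance trend changed no call among the 165 results for the 3 probe sets, although the larger offset moved TUA10 sizes. In the main fit the replicate numbers were not treated as pairing samples. With a replicate block the mean TUA10 transition was 2.12 and the ACT1 change from 0 to 6 dpa 0.80, and the block changed no call. With quantile normalization, mean transitions turned to -0.18 for TUA6 and -0.15 for ACT1, the ACT1 mean step from 19 to 25 dpa to -0.0462, the JKC 777 TUA6 transition to -0.0635 and the JKC 737 ACT1 transition to -0.0248. A further 30 values with an adjusted p of 0.05 or more also changed sign under it. It ended the ACT1 differences between genotypes from 12 to 19 dpa (0.32) and 19 to 25 dpa (0.23) and gave new ones for ACT1 from 0 to 6 dpa (0.44) and TUA6 from 12 to 19 dpa (0.30) and 19 to 25 dpa (0.58). Centring arrays on their medians moved the median of all tested probe sets from 0 to 6 dpa to 0.03, against -0.28 without it. It called the ACT1 mean step at 1.12 and the same step in 4 genotypes, the TUA6 genotype ranges at 0 dpa (1.02) and 25 dpa (1.32) and the TUA6 difference from 12 to 19 dpa (0.83), and ended the ACT1 difference from 19 to 25 dpa (0.73). The stricter filter called the ACT1 difference from 9 to 12 dpa (0.60). No offset ended the TUA10 difference from 9 to 12 dpa (2.26) and the JKC 737 rise in it (1.65), and the number of all probe sets called in the mean steps was 613 from 6 to 9 dpa and 717 from 9 to 12 dpa without an offset, against 397 and 458 with it, and 255 from 6 to 9 dpa with the larger one. With the stricter filter 1187 were called in JKC 725 from 6 to 9 dpa, 3572 in JKC 777 from 0 to 6 dpa, 3500 in JKC 703 from 12 to 19 dpa and 2878 among genotypes at 0 dpa, against 1929, 5497, 5473 and 5381, with fewer probe sets tested.

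Without JKC 725 the TUA10 range in ovules was 1.03 (not called), the TUA10 difference from 9 to 12 dpa was 2.15 and that of ACT1 from 19 to 25 dpa 0.33 (both lost), and TUA6 differences were called from 0 to 6 dpa (0.58) and 12 to 19 dpa (0.62). Without JKC 703 the TUA10 differences from 0 to 6 dpa (1.88) and 9 to 12 dpa (2.26), the ACT1 difference from 12 to 19 dpa (0.41) and the TUA6 F over fibre days (1.97) were lost, and the ACT1 difference from 9 to 12 dpa (0.60) was called, as it was without JKC 783 (0.60). Without JKC 737 the ACT1 difference from 19 to 25 dpa (0.61) was lost. With each array or replicate number left out, the ranges of step differences among genotypes ran from 2.73 to 4.12 (TUA10, 6 to 9 dpa), 1.61 to 2.80 (TUA10, 9 to 12 dpa), 0.34 to 0.82 (ACT1, 9 to 12 dpa), 0.50 to 0.83 (ACT1, 12 to 19 dpa), 0.55 to 0.72 (ACT1, 19 to 25 dpa), 0.14 to 0.64 (TUA6, 9 to 12 dpa) and 0.54 to 0.90 (TUA6, 12 to 19 dpa), and the TUA6 F over fibre days from 1.71 to 5.45. The cause of these changes was not tested. TUA10 levels in ovules other than JKC 725 lie below the filter's signal, so their order and the size of the first rise are limited by signal over background.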

Other observations

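The spread between replicates of TUA10 depended on the day. Averaged over the 5 genotypes, the SD of its log2 values was 0.63 at 0 dpa, 0.69 at 6 dpa, 0.65 at 9 dpa, 0.25 at 12 dpa, 0.19 at 19 dpa and 0.17 at 25 dpa. The widest group was JKC 783 at 6 dpa, with an SD of 1.62 and arrays at 39.0, 275 and 318. For ACT1 the same means lay between 0.07 and 0.17 and for TUA6 between 0.07 and 0.28, and the TUA6 maximum at 12 dpa included JKC 725, with an SD of 0.88.

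Ranked by signal within an array, with 1 as the brightest, ACT1 stood between 4 and 126 on the fibre arrays and TUA6 between 20 and 349 on all arrays. TUA10 reached rank 22 at its best and rank 14336 at its lowest in fibre. In the order of genes of the RefSeq annotation, the genes with the synonyms ACT13 or ACT3 and ACT10 or ACT6 follow ACT1 directly. Whether the ACT1 probe set binds their transcripts was not tested.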
